A study of Mus musculus with 2 samples.

Results

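The 9 genes described here are 4 genes of proteins that fat cells secrete (Adipoq, Lep, Retn and Nampt), 3 genes of adipokine receptors (Adipor1, Adipor2 and Lepr), and Medag and Apmap, which encode proteins tied to fat cell formation. They were taken as every probe set that the array annotation assigns to 1 of these symbols alone, which gave 19 probe sets of 45101 and 9 genes of 18193. The group was chosen by the log2 ratios and signals of these same arrays, which put Medag, Apmap and Adipor2 among the genes that differed, so the differences are given as a description and carry no test. The cells were 3T3-L1, an established mouse preadipocyte line, grown with 25 mM glucose and 10% FBS. Both groups received an siRNA, either siGL3 as the control or one specific for Phf21a (the gene of BHC80, a protein that reads histone tails for the corepressor complex of the demethylase LSD1). Both were given insulin, dexamethasone and 3-isobutyl-1-methylxanthine 24 h after transfection and were harvested 24 h later, at an early stage of adipogenesis. With 1 array per group there is no replicate error, and no test between the groups was possible.

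Adipokines are hormones and cytokines released by fat cells. Adiponectin (Adipoq) improves insulin sensitivity through Adipor1 and Adipor2, multi-pass membrane receptors of the PAQR family, while leptin (Lep) reports fat stores through Lepr, a cytokine receptor that signals by JAK and STAT proteins. In this cell line adiponectin, leptin and resistin (Retn) belong to the late, mature programme, whereas Medag and Apmap are both known to promote differentiation. The comparison asks how these genes stood on the first day of induction when Phf21a was reduced.

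Signals are MAS5 intensities, and a level of one probe set cannot be set against that of another. A probe set was taken as detected when either signal was 51.3 or more, the median over both arrays, and signals under 12.9, the 25th percentile, were raised to that floor before log2 was taken. Log2 ratios are Phf21a siRNA over control siRNA, and each is given ± a local spread, the scatter of log2 ratios among the 1000 detected genes nearest in signal. For further probe sets of a gene the spread was taken among the 1000 nearest detected probe sets instead. That spread is not an error between cultures. By these limits 7 of the 9 genes and 14 of the 19 probe sets were detected, and Adipoq and Lep were not.

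**Figure D1:**
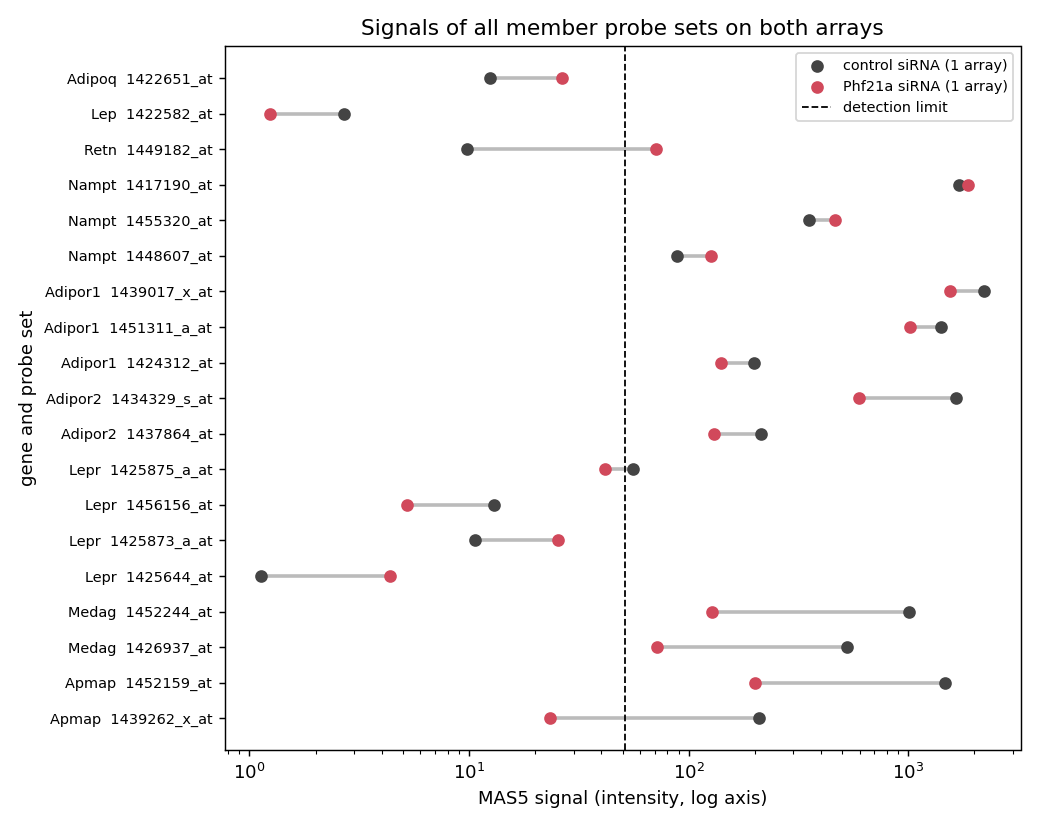
MAS5 signal (log axis) of all 19 probe sets on the control siRNA array (grey points) and the Phf21a siRNA array (red points), 1 array each, with the detection limit of 51.3 as a dashed line. Medag and Apmap are displaced furthest to the left among the probe sets detected on at least 1 array, and Adipoq, Lep and 3 of the 4 Lepr probe sets lie under the limit on both.

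Phf21a itself was 2.51-fold lower on its brightest probe set, with signals of 768 and 306 (log2 ratio -1.33 ± 0.51). Its other probe sets had 592 and 233 (2.54-fold lower), 111 and 67.0 (1.66-fold lower), and 39.2 and 43.8, the last undetected. The 3 detected probe sets were all lower, the direction the labels give. Trimmed means were 500 on both arrays, and the ratio of 3′ to 5′ signal was 1.15 and 1.22 for beta-actin and 0.792 and 0.816 for Gapdh on the control and Phf21a siRNA arrays. The spiked poly-A control RNAs were higher on the Phf21a siRNA array by a median log2 ratio of 0.73 and the hybridisation controls by 0.23. Scaling to either set of controls lowers every log2 ratio by that amount, the median of all genes included.

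Of the 7 detected genes, 3 were at least 2-fold lower (Medag, Apmap and Adipor2), 1 was at least 2-fold higher (Retn, from a signal under the detection limit), and 3 lay between (Adipor1, Lepr and Nampt). Retn was under the floor on 1 array and detected on the other, which always gives more than 2-fold. The limits alone therefore put it past 2-fold. Among all 11301 detected genes 5.44% were at least 2-fold lower and 5.66% at least 2-fold higher. These shares were 27.9% and 1.31% with poly-A scaling and 8.96% and 3.31% with hybridisation scaling. Since the ratios were known when the genes were picked, nothing is read from the contrast between these counts. By probe set, 5 of the 14 detected were at least 2-fold lower and 1 higher, and over all 23901 detected probe sets these shares were 6.73% and 5.31%. The median log2 ratio was -0.47 over the 7 genes and 0.03 over all detected genes. RNA came from whole cultures, so fewer differentiating cells and less RNA per cell cannot be told apart.

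**Figure D2:**
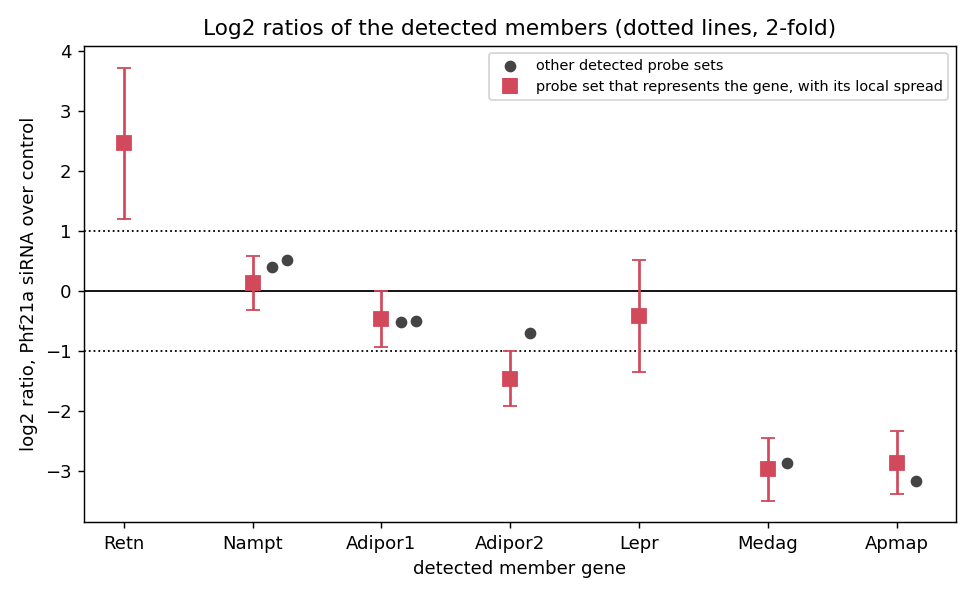
Log2 ratio (Phf21a siRNA over control siRNA) of the 7 detected genes, with squares for the probe set that represents each gene, bars for ± its local spread and grey points for other detected probe sets. Both probe sets of Medag and of Apmap lie under -2.8, the 3 of Adipor1 lie together near -0.5, and the bar of Lepr crosses 0.

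Adiponectin and leptin were not detected. Adiponectin had 1 probe set, with signals of 12.5 (control siRNA) and 26.5 (Phf21a siRNA), both under the detection limit. Leptin, also read by 1 probe set, had 2.69 and 1.24. No fold is given for either gene, because both signals of each were under the limit and at least 1 was under the floor. Adipoq (Entrez gene 11450) lies at chr16:23146536-23157968 and Lep (Entrez gene 16846) at chr6:29060221-29073876 on GRCm38.p6.

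Resistin, a small cysteine-rich hormone first described in mouse fat, was read by 1 probe set (Entrez gene 57264, chr8:3655770-3659818). Its signal was 9.82 with the control siRNA and 70.9 with the Phf21a siRNA, so only the Phf21a siRNA array gave a value over the detection limit. With the control signal raised to the floor of 12.9 the log2 ratio was 2.46 ± 1.26, and with it raised to the detection limit of 51.3 the difference was 1.38-fold (0.47). The size of the difference in Retn is therefore set by the choice of floor. Any gene under 12.9 on 1 array and detected on the other is past 2-fold, so that call was fixed by the limits. A dim gene counts as detected only if 1 array reaches 51.3, so the spread of 1.26 partly reflects that rule. Taken among the nearest probe sets instead of genes, the spread was 1.83.

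Nampt, the rate-limiting enzyme of NAD salvage that is also secreted and known as visfatin, was well detected and nearly level (Entrez gene 59027, chr12:32820335-32853369). The brightest of its 3 probe sets had signals of 1701 and 1863 (log2 ratio 0.13 ± 0.45). The others had 352 and 463 (0.40) and 88.8 and 127 (0.51), so each was slightly higher on the Phf21a siRNA array and each by less than its local spread. Scaling to the hybridisation controls put the brightest at -0.10 and scaling to the poly-A controls at -0.59, so the direction for Nampt depended on the scaling.

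Both adiponectin receptors were lower on every detected probe set. Adipor2, the receptor linked to PPAR alpha signalling in liver (Entrez gene 68465, chr6:119353150-119417699), had signals of 1646 (control siRNA) and 598 (Phf21a siRNA) on its brighter probe set, 2.75-fold lower (log2 ratio -1.46 ± 0.47). Its dimmer probe set had 214 and 131, 1.63-fold lower (-0.70 with a local spread of 0.61). The brighter one carries the suffix _s_at, which Affymetrix gives to probe sets that can match transcripts of more than 1 gene. Without suffixed probe sets Adipor2 was at -0.70 and no longer 2-fold lower, and the mean of both was -1.08.

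Adipor1, the receptor linked to AMPK signalling (Entrez gene 72674, chr1:134415378-134433351), was lower by a smaller amount that its 3 probe sets shared. The pairs of control and Phf21a siRNA signals were 2221 and 1546 (log2 ratio -0.52), 1408 and 1017 (-0.47 ± 0.46) and 199 and 141 (-0.50). These ratios differed among themselves by 0.05 on the log2 scale, against a median of 0.44 between the lowest and highest probe set over the 5597 genes with several detected probe sets. The corresponding difference was 0.76 for Adipor2, whose dimmer probe set (-0.70) lay closer to those of Adipor1 than its brighter one did. Whether the 2 receptors differ in response was not tested.

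Lepr was barely detected (Entrez gene 16847, chr4:101717137-101815352). Of its 4 probe sets 1 reached the detection limit, with signals of 55.7 and 41.8 (log2 ratio -0.42 ± 0.94). The other 3 had pairs of 13.0 and 5.24, 10.7 and 25.4, and 1.13 and 4.37, all under the limit and differing in direction. The difference of the detected probe set was smaller than its local spread, and with poly-A scaling it was -1.14.

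Medag and Apmap had the lowest ratios of the group. Medag, named for mesenteric oestrogen-dependent adipogenesis and known to promote fat cell differentiation (Entrez gene 70717, chr5:149367641-149431723), had signals of 1004 (control siRNA) and 128 (Phf21a siRNA), 7.87-fold lower (log2 ratio -2.98 ± 0.52). Its second probe set had 524 and 71.7, 7.30-fold lower (-2.87), so the pair differed by 0.11. All 4 signals were over the detection limit. In rank Medag was number 5 from the lowest among the 11301 detected genes.

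Apmap, a glycosylated membrane protein of the adipocyte surface with a paraoxonase-like fold (Entrez gene 71881, chr2:150583080-150608567), had signals of 1463 and 201 on its brighter probe set, 7.27-fold lower (log2 ratio -2.86 ± 0.53). The dimmer one, of the _x_at kind that can cross-hybridise, had 210 and 23.3 (-3.17). Its Phf21a siRNA signal was under the detection limit, and with that signal raised to the limit the log2 ratio was -2.03. Apmap was number 7 from the lowest. Of the related paraoxonase-like genes only Pon2 was detected (794 and 762, -0.06 ± 0.51), while Pon1 (3.97 and 20.5), Pon3 (18.0 and 21.8) and Rgn (32.9 and 17.0) were under the limit.

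**Figure D3:**
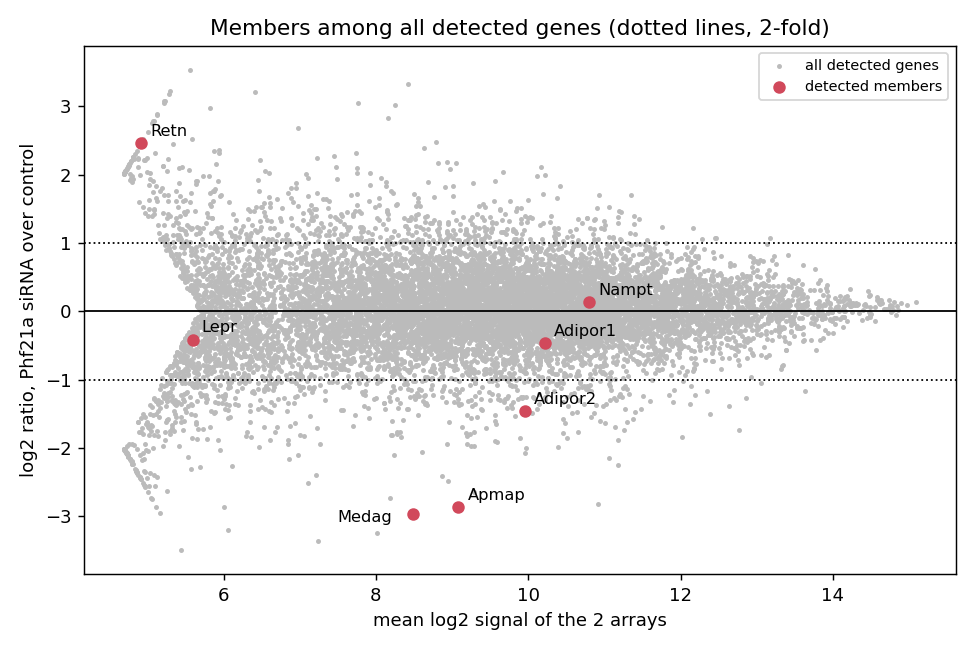
Log2 ratio (Phf21a siRNA over control siRNA) against the mean log2 signal of the 2 arrays for all 11301 detected genes (grey) and the 7 detected members (red), with dotted lines at 2-fold. Medag (-2.98) and Apmap (-2.86) lie at the lower edge of the cloud at intermediate signal, Adipor2 (-1.46) lies below the 2-fold line, and Retn stands at the dim end where the scatter is widest.

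Over the 11 alternative processings Medag ranged from -3.70 to -2.92 and Apmap from -3.59 to -2.86. Adipor2 ranged from -2.18 to -0.70 and was at least 2-fold lower in 10 of the 11. The exception was the only setting that left out its brighter, suffixed probe set. The floor at the detection limit and the stricter limit left Medag, Apmap and Adipor2 unchanged, because their signals lay over those limits on at least 1 array and over the detection limit on both. For each of these 3 genes the lowest value came from scaling to the poly-A controls.

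**Figure D4:**
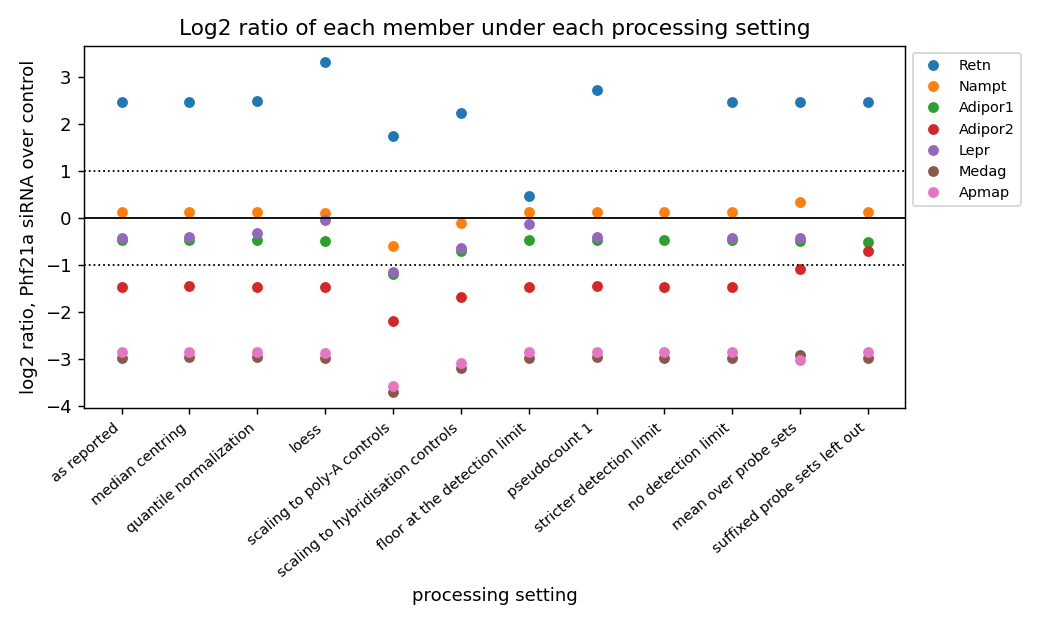
Log2 ratio (Phf21a siRNA over control siRNA) of each detected member under the reported processing and the 11 alternatives, with dotted lines at 2-fold. Medag and Apmap stay under -2.8 throughout, Adipor2 crosses the 2-fold line where suffixed probe sets are left out, Retn falls to 0.47 with the floor at the detection limit, and Nampt lies under 0 with both control scalings.

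The sequence just upstream of an annotated start site is shown for the 3 genes that were at least 2-fold lower and for Adipor1, the paralogue of Adipor2. Each is 250 bases 5′ to 3′ on the gene's strand, taken from RefSeq on GRCm38.p6 and ending at the base before the start site. Capitals mark matches to a CCAAT box (CCAAT) or a GC box (GGGCGG) on either strand. For Medag and Adipor1, which have 2 annotated start sites each among these windows, the first by coordinate is shown. The windows of Medag and Adipor2 lie inside the gene spans given above, so they precede an inner start site. Sequence before the outer 5′ ends of Medag and Adipor2 was not examined.
Medag (chr5:149411499-149411748, plus strand): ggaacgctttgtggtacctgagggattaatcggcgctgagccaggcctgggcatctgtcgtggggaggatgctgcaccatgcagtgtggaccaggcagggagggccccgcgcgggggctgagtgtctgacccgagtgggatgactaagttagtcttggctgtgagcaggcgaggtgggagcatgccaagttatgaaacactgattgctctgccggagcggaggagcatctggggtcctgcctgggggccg
Apmap (chr2:150608568-150608817, minus strand): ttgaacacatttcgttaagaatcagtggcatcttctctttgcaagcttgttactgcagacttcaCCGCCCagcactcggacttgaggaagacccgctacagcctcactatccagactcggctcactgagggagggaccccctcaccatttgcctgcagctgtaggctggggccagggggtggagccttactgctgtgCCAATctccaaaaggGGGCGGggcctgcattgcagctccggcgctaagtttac
Adipor2 (chr6:119388735-119388984, minus strand): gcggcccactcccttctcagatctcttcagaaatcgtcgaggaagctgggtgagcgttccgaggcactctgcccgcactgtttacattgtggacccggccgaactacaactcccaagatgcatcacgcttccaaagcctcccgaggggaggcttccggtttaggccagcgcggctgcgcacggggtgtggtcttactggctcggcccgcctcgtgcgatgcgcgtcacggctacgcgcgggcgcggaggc
Adipor1 (chr1:134415128-134415377, plus strand): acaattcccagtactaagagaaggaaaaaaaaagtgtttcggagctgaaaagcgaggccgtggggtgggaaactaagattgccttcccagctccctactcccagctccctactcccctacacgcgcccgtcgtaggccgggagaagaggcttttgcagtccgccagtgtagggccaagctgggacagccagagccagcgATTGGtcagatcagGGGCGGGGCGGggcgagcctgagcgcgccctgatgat
The 4 windows were unlike in these letters. Apmap held 1 CCAAT box, starting 53 bases before the start site, and 2 GC boxes, and Adipor1 held 1 CCAAT box and 2 overlapping GC boxes. Neither motif was found in the windows of Medag and Adipor2, which lie inside the annotated genes. Over all 32851 windows of this length 33.8% held a CCAAT box and 32.7% a GC box.

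Base composition differed too. The Adipor2 window was 64.8% G or C with 27 CpG dinucleotides, that of Medag 62.8% with 12, that of Adipor1 59.6% with 15, and that of Apmap 56.8% with 8, against medians of 52.4% and 6 over all windows. The window of Adipoq, the gene of the mature fat cell, held 0 CpG dinucleotides and that of Retn 2. Besides the boxes above, 7 other motifs were searched on both strands in the 12 windows of the 9 genes. These were TATAAA, the nuclear receptor motif AGGTCA, the C/EBP palindrome TTGCGCAA and its relaxed form TTNNGCAA (every palindrome is also a relaxed match), the cAMP response element TGACGTCA, the E-box CACGTG and the relaxed glucocorticoid element ACANNNTGT. The C/EBP palindrome was found in the window of Lep alone (0.164% of all windows), AGGTCA in that of Nampt alone (14.0%), and CACGTG in the second window of Medag alone (6.02%). The relaxed C/EBP form (9.56% of all windows) matched only at the Lep palindrome, and TATAAA (12.4%), the cAMP element (1.55%) and the glucocorticoid element (5.84%) were in none of the 12. A match is a description of the letters and was not tied to any measurement here.

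The genes most like these members were found by the difference in log2 ratio over the 2 arrays, among genes with a signal of 461 (the 75th percentile) or more on either array. Nearest to Medag was Apmap (a difference of 0.11), followed by Gja1, the gap junction connexin (5107 and 726, log2 ratio -2.82), and E2f4, a cell cycle transcription factor (755 and 113, -2.74). Nearest to Apmap was Gja1, at a difference of 0.05, then Medag and E2f4. For Adipor2 they were Nudcd3 (1683 and 614, -1.45), Cnot10 (1113 and 408, -1.45) and Mrpl34 (2669 and 957, -1.48). With 2 arrays likeness rests on 1 ratio per gene.

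Around the receptors, genes of adiponectin assembly and secretion, which form and modify the hormone in the endoplasmic reticulum, had 3 of 8 detected genes past 1.5-fold in the lower direction and 0 in the higher. The share of all detected genes past 1.5-fold was 13.9% in the lower direction and 15.1% in the higher. Plod3, a collagen-type lysyl hydroxylase, was 2.14-fold lower (3612 and 1690, log2 ratio -1.10 ± 0.42). The other 2 were Ero1b (142 and 84.4, -0.75 ± 0.71) and Gstk1 (343 and 227, -0.59 ± 0.57), chosen for naming after their values were seen. Erp44, the chaperone that retains adiponectin, was level on its brightest probe set (2201 and 2215), but another probe set gave -1.91. The median of the list was -0.21, and with poly-A scaling 7 of the 8 were past 1.5-fold in the lower direction. Under that scaling the median of all detected genes was -0.70, itself past 1.5-fold in the lower direction. The shares of all genes past 1.5-fold were not computed under either control scaling. Counts under the control scalings, here and for the lists below, are therefore not read as results about the lists.

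In adiponectin receptor signalling 2 of 11 detected genes were past 1.5-fold in the higher direction and 1 in the lower, and the median was 0.05. Over all detected genes the shares were 15.1% and 13.9%. Appl1, the adaptor that binds the receptors, had signals of 557 and 888 (log2 ratio 0.67 ± 0.53), and its 4 probe sets ranged from 0.21 to 0.67. Camkk2, a kinase upstream of AMPK, had 570 and 1084 (0.93 ± 0.51), with another probe set at 0.10. Mapk14, the p38 kinase, was lower (2096 and 1288, -0.70 ± 0.46), although its 5 probe sets ran from -1.12 to 0.27. With poly-A scaling the list had 0 genes past 1.5-fold in the higher direction and 8 in the lower, and with hybridisation scaling 1 and 2.

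The other PAQR family members, relatives of the adiponectin receptors, were detected in 4 of 9 cases. All 4 had log2 ratios under 0 on their representing probe sets under the reported processing (Paqr8 was above 0 in 2 alternatives), with a median of -0.49, and 1 was at least 1.5-fold lower. That gene was Paqr3 (182 and 107, log2 ratio -0.77 ± 0.67), chosen for naming after its value was seen. Over all detected genes 13.9% were at least 1.5-fold lower. Paqr4 (-0.53) and Mmd (-0.24) were within their local spreads of 0.62 and 0.41, as was Paqr8 with a spread of 1.06. The share of all genes under 0 was not computed, so nothing is read from the shared direction. The dim Paqr8 (51.8 and 37.8, -0.46) had another probe set at 1.42, and the gene was at 1.21 with quantile normalization and at 0.69 as the mean over probe sets, so its direction depended on the processing.

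Leptin receptor signalling had 3 of 14 detected genes past 1.5-fold in the higher direction and 1 in the lower, and a median of 0.32. The shares over all detected genes were 15.1% and 13.9%, and the counts are not read as a result about the list. Irs1, an insulin receptor substrate, was 1.89-fold higher (598 and 1132, log2 ratio 0.92 ± 0.50). Socs3, the inhibitor that ends leptin signalling, was 2.09-fold lower (492 and 236, -1.06 ± 0.55), and its 3 probe sets ranged from -1.06 to -0.54. Jak2 (506 and 495, -0.03) and Stat3 (2273 and 2580, 0.18), the kinase and transcription factor of the pathway, were within their local spreads of 0.51 and 0.42, though the probe sets of Stat3 ran from -1.37 to 0.60. With poly-A scaling the list had 0 genes higher and 5 lower, and with hybridisation scaling 2 and 2.

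Beside Nampt, the NAD synthesis and use list had 4 of 14 detected genes past 1.5-fold in the higher direction and 3 in the lower, and a median of 0.03. The shares over all detected genes were 15.1% and 13.9%. Sirt2, a cytosolic NAD-dependent deacetylase, was 1.74-fold higher (763 and 1326, log2 ratio 0.80 ± 0.47), and Parp1, a large consumer of NAD, 1.61-fold lower (4553 and 2822, -0.69 ± 0.39). The dimmer Sirt3, a mitochondrial sirtuin, had 137 and 419 (1.62 ± 0.59) and Sirt1, a nuclear one, 441 and 194 (-1.19 ± 0.56). Sirt3 and Sirt1 were chosen after their values were seen. With poly-A scaling 1 gene of the list was higher and 9 lower, and with hybridisation scaling 1 and 5.

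Other secreted adipokines were detected in 11 of 27 cases on the array, 2 of them past 1.5-fold in the higher direction and 4 in the lower, and the median was -0.18. Over all detected genes the shares were 15.1% and 13.9%. Nucb2, the precursor of nesfatin, had signals of 460 and 1042 (log2 ratio 1.18 ± 0.54), and Lcn2, lipocalin 2, had 1068 and 2163 (1.02 ± 0.47), though with poly-A scaling 0 genes of the list were higher and 8 lower. The chemokine Ccl2 had 3880 and 1678 (-1.21 ± 0.43) and the peptide hormone Apln 615 and 341 (-0.85 ± 0.52). Rbp4 (18.8 and 17.4) and Rarres2, chemerin (23.2 and 30.5), were under the detection limit on both arrays, as Adipoq and Lep were. Of 5 detected receptors of other adipokines 1 was past 1.5-fold in each direction, the median was -0.14, and Tlr4, a receptor proposed for resistin, was the higher one (226 and 520, 1.20 ± 0.54). With poly-A scaling 0 of the 5 were higher and 3 lower, and with the floor at the detection limit 1 and 0.

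**Figure D5:**
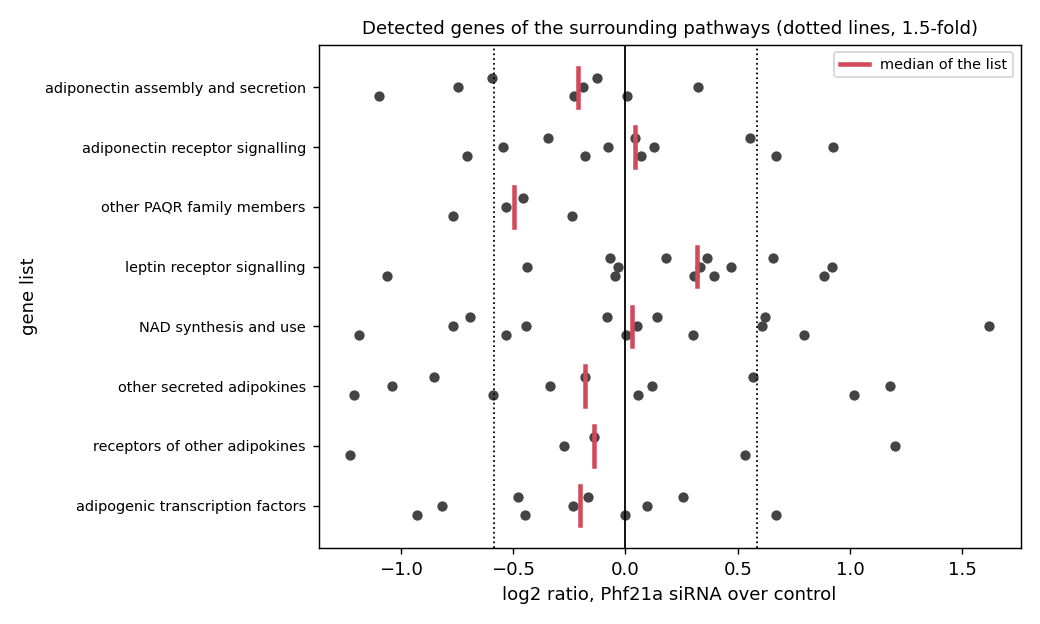
Log2 ratio (Phf21a siRNA over control siRNA) of each detected gene of 8 surrounding gene lists (points) with the median of each list (red bar) and dotted lines at 1.5-fold. The medians lie between -0.49 for the other PAQR genes and 0.32 for leptin receptor signalling, and genes of most lists lie on both sides of 0.

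The transcription factors of adipogenesis had 1 of 10 detected genes past 1.5-fold in the higher direction and 2 in the lower, and a median of -0.20. The shares over all detected genes were 15.1% and 13.9%. Pparg, the regulator that drives the adipokine genes late in differentiation, had signals of 512 and 814 (log2 ratio 0.67 ± 0.53). The 2 lower genes, dim and chosen for naming after their values were seen, were Ebf2 (110 and 58.0, -0.93 ± 0.72) and Zfp423 (63.7 and 36.1, -0.82 ± 0.95), both factors of committed precursors. Zfp423 was no longer past 1.5-fold with the floor at the detection limit (-0.31). Pparg was no longer past 1.5-fold with poly-A scaling (-0.06), where 0 of the 10 were higher and 8 lower, or with hybridisation scaling (0.44), where 0 were higher and 4 lower. Cebpa, its partner in mature fat cells, did not reach the detection limit (45.0 with the control siRNA, and under the floor with the Phf21a siRNA).

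Markers of preadipocytes and of adipocytes were found on both arrays. Of the 6 adipocyte markers on the array 4 were detected, Fabp4 (3502 and 5849) and Lpl (3614 and 3253) strongly, whereas Cidec (2.24 and 1.20) was not. Past 1.5-fold, Fabp4 was higher and Slc2a4, the insulin-responsive glucose transporter, was lower (70.8 and 8.99, the latter under the floor). For this and the other marker lists, the shares over all detected genes were 15.1% in the higher direction and 13.9% in the lower. Fabp4 was no longer past 1.5-fold with poly-A scaling (log2 ratio 0.02) or hybridisation scaling (0.51). Slc2a4 was no longer past it with the floor at the detection limit (-0.47). Of 6 preadipocyte markers 5 were detected, of which 1 was past 1.5-fold in each direction. Their median was -0.30, and 1 was above 0. Dlk1 had 12290 and 5940 (log2 ratio -1.05 ± 0.32), with another probe set at -1.78. Pdgfrb, a growth factor receptor, had 2092 and 3743 (0.84 ± 0.42), with another probe set at 0.13. Col1a1 (4274 and 2867, -0.58 ± 0.39) fell just short of 1.5-fold lower. It was past that size with quantile normalization, loess or hybridisation scaling. With poly-A scaling Dlk1 was at -1.77 and Pdgfrb at 0.11. The signals of the detected markers summed to 7224 and 9164 for adipocytes and to 21951 and 15402 for preadipocytes on the control and Phf21a siRNA arrays. Such sums follow the brightest probe sets, here Fabp4 and Dlk1, and hide members that went the other way. None of the 6 endothelial markers was detected. The 5 of 9 detected leukocyte markers summed to 409 and 720, 3 of them past 1.5-fold in the higher direction and 1 in the lower. Most of that difference was in Csf1r (200 and 452, with probe sets from 0.18 to 1.18 on the log2 scale), while Laptm5 went the other way (66.4 and 22.3). Fcer1g (25.7 and 54.4) and Laptm5 reached the detection limit only on the array where each was higher. With the floor at that limit 2 leukocyte markers were past 1.5-fold in the higher direction and 0 in the lower. With poly-A scaling 0 leukocyte markers were past 1.5-fold in the higher direction and 1 in the lower. The markers Ptprc (6.87 and 12.2), Tyrobp (4.66 and 6.32), Cd52 (1.61 and 3.87) and Adgre1 (36.2 and 23.5) were under the limit. The 2 of 5 detected muscle markers summed to 150 and 99. The part of these markers in the values of the 9 genes was not tested.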

How the data were processed

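Total RNA (1 ug) of each group was measured on 1 Affymetrix array. Whether it came from 1 culture or several is not stated. The authors' deposited intensity values are linear MAS5 signals, per the submitters' processing notes. The MAS5 version is not stated there, and detection calls were not used here. MAS5 subtracts mismatch signal, so low values are noisy, and its scaling to 1 trimmed mean cannot show a change in total messenger RNA.

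Control probe sets (64 of 45101) were left out of the limits. Probe sets mapped to 1 gene (34945), and 34741 of these matched the gene table by Entrez number. Each gene was represented by its detected probe set with the highest mean log2 signal, leaving out _x_at probe sets where another existed. No test or p-value was computed. The number of arrays limits the precision.

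The 9 genes and the gene lists were chosen with earlier results of these data known. Named were the 9 genes, Phf21a, the genes nearest in log2 ratio, and up to 4 genes per list at least 1.5-fold changed with a higher signal of 461 or more; genes and values named outside this rule were chosen after their values were seen. Of the listed genes, those without a probe set of 1 gene were left out. The processing was tested on simulated arrays, with changes placed only in genes with a control signal well over the detection limit. Noise there was equal at every signal level, so that test does not cover dim genes such as Retn and Lepr. Python 3.11.15, numpy 2.4.6, pandas 2.3.3, statsmodels 0.14.6 (loess) and matplotlib 3.10.9 were used.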

Additional observations from a re-analysis of the deposited data

How the results depend on the processing

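Alternatives were 5 other scalings, 2 other treatments of low signals, 2 other detection limits, 2 other summaries per gene and 2 other sizes of fold. No paired analysis was possible because each group held 1 array. Scaling to the poly-A controls moved the median of all genes to -0.70 and the share at least 2-fold lower to 27.9%; under it 5 members were at least 2-fold lower, the median of the members was -1.19 and Phf21a was at -2.05. The count of members at least 2-fold higher was 0 with the floor at the detection limit, 0 under the stricter limit, and 2 without a limit, which adds Adipoq. The stricter limit kept 5 members, with a median of -1.46. Scaling to the hybridisation controls moved the median of all genes to -0.20. Leaving out suffixed probe sets reduced the members at least 2-fold lower to 2. Of the other member values 151 moved by less than their local spread and 21 by more, with no called value changing sign. Probe sets that represent a gene enter this tally again as the gene, and some settings could not alter bright genes. The tally is therefore not a measure of stability. At 3-fold 2 members were lower and 1 higher, the latter being Retn, whose size is set by the floor. The share of all genes past 3-fold was not computed, so nothing is read from these counts. With the floor at the detection limit 3.31% of all genes were at least 2-fold lower. Of the list counts at 1.5-fold 230 stayed within 1.5 times and 78 did not. Signals near 51.3 limit Retn and Lepr.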
